A study of Mus musculus with 18 samples.

Results

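Sirtuins are enzymes that use NAD, the cell's main redox cofactor, to remove acetyl and longer acyl groups from lysines of proteins. The mouse genome holds 7 of them, Sirt1 to Sirt7, and each was represented on the arrays. All probes annotated with one of these symbols were taken, which gave 11 probes of 45281. Of these, 10 were tested among 20536 probes that passed a filter on detection. The second Sirt7 probe was not above background on any of 18 arrays and was not tested. All 10 tested sirtuin probes were detected on all 18 arrays.

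Sirt1, Sirt6 and Sirt7 act mainly in the nucleus, Sirt2 mainly in the cytosol, and Sirt3, Sirt4 and Sirt5 in mitochondria. Each reaction splits one NAD molecule and releases nicotinamide, so the enzymes depend on the supply of NAD and compete for it with other consumers such as the PARP family. In liver, sirtuins are known for deacetylating histones, transcription factors and enzymes of fatty acid oxidation, ketone formation and the urea cycle. Arrays measure their mRNA and not their activity.

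The cells were AML12, an immortalized line of mouse hepatocytes, cultured in complete DMEM with 10% FBS. They received octanoate, a medium-chain fatty acid of the kind that enters mitochondria without the carnitine shuttle, for 24 h at 1 mM (4 arrays), 2 mM (5 arrays) or 5 mM (4 arrays), or PBS as the control (5 arrays). The labels name no genetic difference between the groups. The labels number the replicates but do not say that they were separate cultures, so a p-value here reflects only how far these arrays scatter, and that scatter may be technical.

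The arrays were spread over 3 BeadChips of 6 arrays each, and this touches most results. PBS arrays lay on BeadChip 1 with 1 mM replicate 1 as the sole treated array there, while 5 mM arrays lay on BeadChip 3 and shared no BeadChip with PBS. For the sirtuins and most other genes named, the difference is therefore also given as a BeadChip value, meaning that BeadChip was added to the model, and that value reaches PBS only through that single 1 mM array. Between 17446 and 19842 probes were detected per array, and arrays of one group correlated at 0.988 to 0.995. The arrays farthest from their group's mean were 1 mM replicate 1, 1 mM replicate 4 and 2 mM replicate 5 (root mean square distance 0.207, 0.204 and 0.196 log2 units, against 0.138 to 0.178 on the others). Without these 3 arrays the same sirtuins passed at 1 and 2 mM, and at 5 mM Sirt3 passed besides. Of 10 hepatocyte markers 6 were tested and all 6 were higher at 5 mM than in PBS, while Alb, Cps1 and Fgb were not detected on any array. Of all tested probes 27.2% were higher at 5 mM. With BeadChip as a term 5 of the 6 markers were higher. Summed over the 10 markers, the log2 level was 79.3 to 80.3 at 5 mM and 69.2 to 70.3 in PBS, and the part of this shift in the sirtuin results was not tested. The macrophage markers Adgre1, Clec4f, Lyz2 and Ptprc, the stellate cell markers Col1a1, Lrat and Pdgfrb, the endothelial marker Pecam1 and the biliary marker Epcam were not detected on any array either. Of 4 tested markers of the first 3 of these cell types 2 passed at 5 mM, where 58.7% of all genes did. Des, an intermediate filament protein of stellate cells, rose by 0.68 ± 0.17 (adjusted p = 0.00223; BeadChip value 1.19, adjusted p = 0.0334). Kdr, a receptor of endothelial cells, was lower by 0.40 ± 0.11 (adjusted p = 0.00563; BeadChip value −0.41, adjusted p = 0.337). Kdr was detected on 3 PBS arrays and on 0 arrays at 5 mM, so it lay near background and no fall is read from it. Acta2 (−0.27, adjusted p = 0.0515) and Csf1r (0.16, adjusted p = 0.218) did not pass. Of 3 tested biliary markers, Krt7 (−1.08) and Krt19 (−0.25) fell and Sox9 rose (0.34) at 5 mM on the log2 scale, and with BeadChip as a term 0 of them were higher and 0 lower. The part of these markers in the sirtuin results was not tested.

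Levels are normalized intensities on the log2 scale, and a difference of 1 is a doubling. Probes differ in how brightly they bind, so levels were compared within a probe and never between sirtuins. A gene was called changed at an adjusted p under 0.05 (limma, Benjamini-Hochberg over all 20536 tested probes), with its brightest probe standing for it.

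Among the 7 sirtuins, Sirt1 fell with dose, Sirt4 was already higher at 1 mM and stayed there, and Sirt5 was higher at 5 mM. Sirt2, Sirt3, Sirt6 and Sirt7 did not pass the test against PBS at any dose. At 1 mM against PBS 1 of 7 genes passed, at 2 mM 2 of 7 and at 5 mM 3 of 7. Over all genes by their brightest probe the shares that passed were 19.6%, 40.8% and 58.7% at the same doses (17.6%, 37.1% and 53.5% of all tested probes), so the family's counts were not above those of genes in general. Its median log2 fold change was 0.03, 0.11 and 0.18 at 1, 2 and 5 mM, beside 0, 0 and 0.01 over all genes. With BeadChip as a term the family's medians were 0.08, −0.15 and 0.03, which did not follow the dose. The median size of change at 5 mM without that term, whatever its direction, was 0.25 for sirtuins and 0.33 for all genes. With BeadChip as a term 0, 0 and 1 of 7 genes passed, and the 1 was Sirt1 (6.31%, 10.4% and 24.2% of all tested probes passed that fit).

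**Figure D1:**
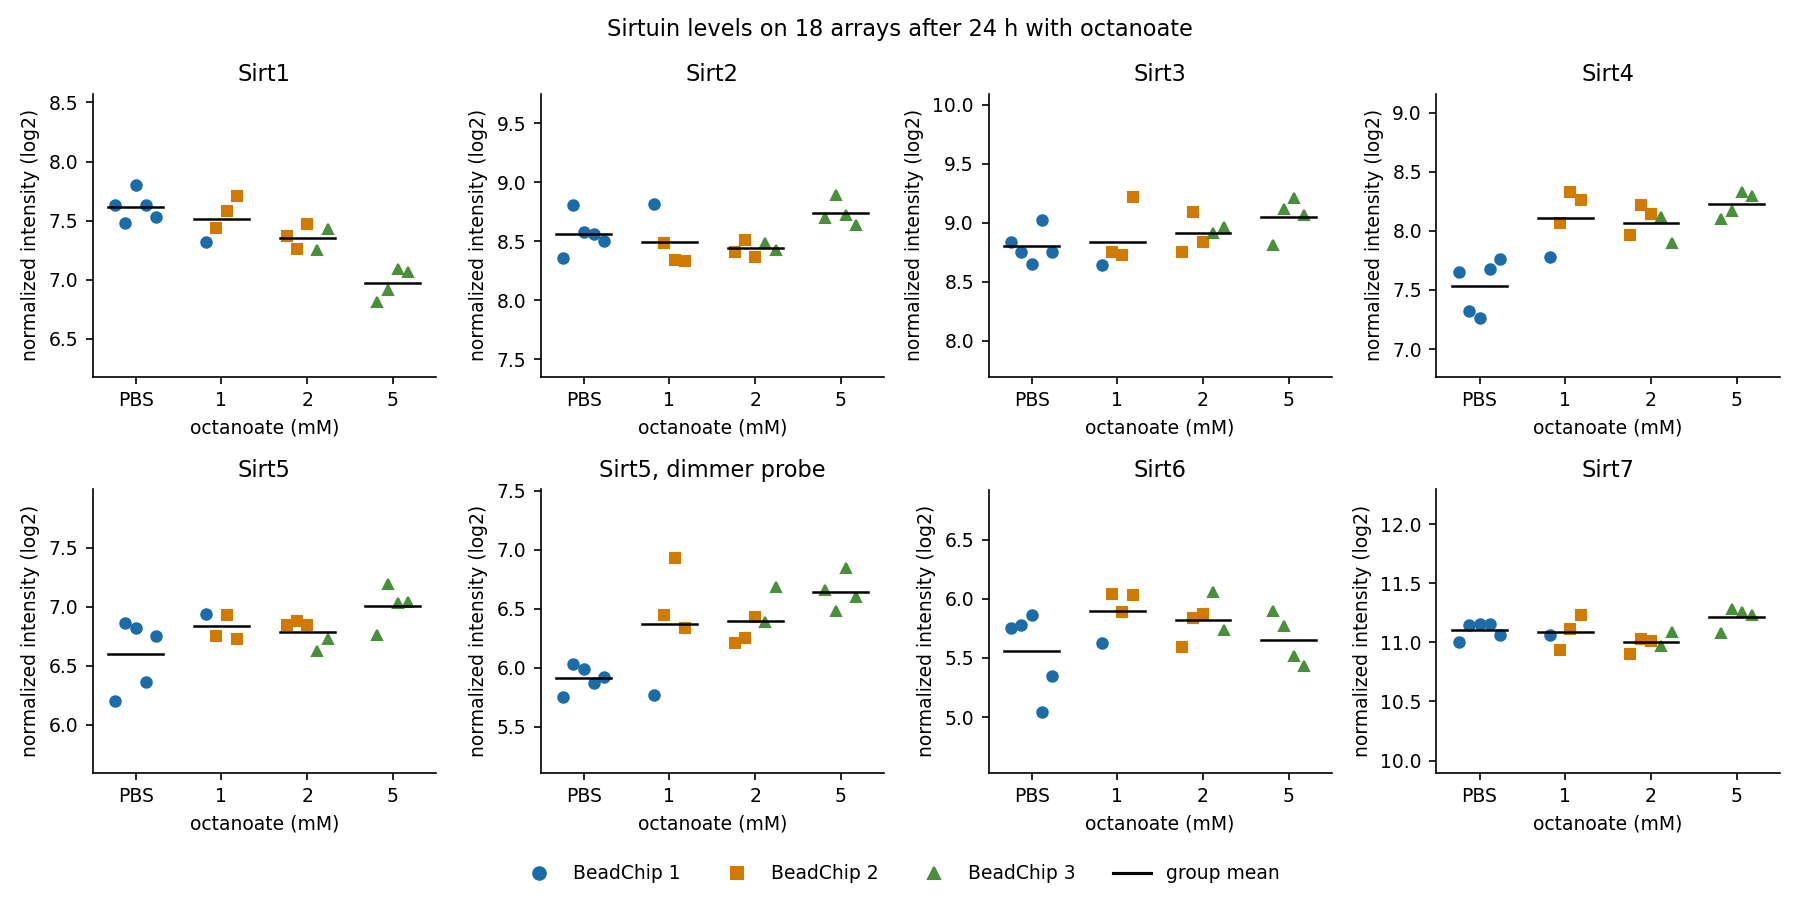
Normalized intensity (log2, vertical axes, all spanning the same range) of each sirtuin's brightest probe and of the dimmer Sirt5 probe on 18 arrays by octanoate dose (mM). Points are arrays with the BeadChip as colour and shape, and lines are group means. All 4 Sirt1 points at 5 mM lie below all 5 PBS points, and all 4 Sirt4 points at 1 mM lie above them.

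Sirt1, the founding mammalian sirtuin, deacetylates histones and regulators such as p53, PGC-1 alpha and FOXO proteins. Its promoter is shown because Sirt1 was the only member that fell. The window covers 250 bases before the start of the gene on chr10:63339036-63339285, minus strand, from RefSeq's table for build GRCm38.p6, and the capitals mark the E-box CACGTG.

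Sirt1 promoter: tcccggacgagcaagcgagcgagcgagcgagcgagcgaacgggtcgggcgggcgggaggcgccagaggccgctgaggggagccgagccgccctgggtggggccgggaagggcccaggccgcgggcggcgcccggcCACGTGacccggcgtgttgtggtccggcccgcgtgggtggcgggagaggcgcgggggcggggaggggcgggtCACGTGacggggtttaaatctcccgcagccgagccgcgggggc

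The E-box is a palindrome, so both strands read alike, and it occurs 2 times in this window. Of 32851 promoter windows of the same length in the table, 6.02% hold it, and of 9 sirtuin windows only that of Sirt1 did. The window's GC content was 79.2%, against a median of 52.4% over all windows. A match of letters is a description and does not show that a factor binds there.

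In PBS, Sirt1 was at 7.63, 7.48, 7.80, 7.63 and 7.53 on the 5 arrays. It was at 7.32, 7.44, 7.58 and 7.71 at 1 mM, at 7.37, 7.26, 7.47, 7.25 and 7.43 at 2 mM, and at 6.81, 6.91, 7.09 and 7.06 at 5 mM. The 1 mM arrays overlapped with PBS, the 2 mM arrays all lay below every PBS array, and the 5 mM arrays lay below the arrays of every other group. Separation from PBS, in either direction, was found for 25.9% of tested probes at 2 mM and 45.4% at 5 mM. Sirt1 averaged 7.62 ± 0.12 with PBS, 7.51 ± 0.17 with 1 mM, 7.36 ± 0.10 with 2 mM and 6.97 ± 0.13 with 5 mM (SD, n = 5, 4, 5 and 4).

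At 5 mM Sirt1 fell by 0.65 ± 0.09 log2 units against PBS (0.639-fold, adjusted p = 6.71e-06, limma), and 10.4% of 10605 genes had lower values. The BeadChip value was −0.87 (adjusted p = 0.00696), so the call held in that fit. In a culture measured in bulk, fewer cells with the mRNA and less mRNA per cell cannot be told apart. At 2 mM the difference was −0.26 ± 0.09 (0.836-fold, adjusted p = 0.0264), and it no longer passed with BeadChip as a term (−0.51, adjusted p = 0.0899) or without PBS replicate 3, 2 mM replicate 2 or 2 mM replicate 4, where the highest adjusted p was 0.08. At 1 mM it was −0.10 ± 0.09 (adjusted p = 0.492), with a 95% confidence interval of −0.30 to 0.10 and a BeadChip value of −0.30 (adjusted p = 0.25).

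The step from 2 to 5 mM had 4 arrays at 5 mM below all 5 at 2 mM, and 25.7% of tested probes did not overlap between these groups. The log2 fold change was −0.39 ± 0.09 (adjusted p = 0.00345; BeadChip value −0.37, adjusted p = 0.031). These groups share BeadChip 3, so this comparison has arrays of both groups on one slide. Over all arrays Sirt1's slope was −0.13 ± 0.02 log2 units per mM (adjusted p = 2.3e-06; BeadChip value −0.14, adjusted p = 0.00725). The slope passed for 3 of 7 sirtuins, Sirt1, Sirt4 and Sirt5, where 55.6% of genes and 50.5% of all tested probes passed. Adding BeadChip left Sirt1 alone among the 7 (22.8% of all tested probes passed), and without 5 mM replicate 2 Sirt5's slope did not pass. Sirt3 lay just outside the threshold and passed in most other settings, which then made 4 of 7.

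The fall is relative to other probes of the same array. Before background correction and normalization, Sirt1 had a mean intensity of 287 in PBS and of 247, 246 and 240 at 1, 2 and 5 mM. On that scale it was thus nearly level from 1 to 5 mM. The Sirt7 probe read 2380 in PBS and 2030, 2090 and 2670 at the same doses. Scaling each array to its median gave Sirt1 a log2 fold change of −0.47 at 5 mM (adjusted p = 0.00624), where the median of all tested probes moved to 0.09. In that scaling the step from 2 to 5 mM was −0.16 and did not pass (adjusted p = 0.436).

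The genes whose levels followed Sirt1 most closely over 18 arrays were Banf1, a DNA-binding protein that helps rebuild the nucleus after division (r = 0.946), Mir17hg, the host gene of a microRNA cluster (r = 0.945), and Pih1d1, part of a chaperone complex (r = 0.933). At 5 mM against PBS they were at −0.95, −1.30 and −0.88 on the log2 scale. Within groups, after each group's mean was removed, the correlations were 0.77, 0.67 and 0.62. The 18 points share their BeadChips and groups, and these genes were picked as the highest of 10598, so the coefficients are descriptions only.

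Sirt4 is a mitochondrial sirtuin known for restraining glutamate dehydrogenase, malonyl-CoA decarboxylase and the oxidation of fatty acids. Its promoter is shown because Sirt4 was the member that was higher at every dose. The window lies on chr5:115484298-115484547, minus strand (RefSeq, GRCm38.p6). The capitals mark ACTACA and TCCCA with 2 bases of any kind between them, or the reverse complement, a box of the kind that the zinc finger factor ZNF143 is known to bind.

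Sirt4 promoter: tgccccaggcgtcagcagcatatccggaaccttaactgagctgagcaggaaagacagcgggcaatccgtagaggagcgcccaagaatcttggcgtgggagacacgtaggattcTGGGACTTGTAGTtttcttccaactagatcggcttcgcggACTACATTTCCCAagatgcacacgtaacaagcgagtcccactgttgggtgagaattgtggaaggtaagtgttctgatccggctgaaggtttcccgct

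The box occurs 2 times here, once on each strand, and once in the window of Sirt2. Of all 32851 windows 1.35% hold it. It was searched for after these windows had been read, and the Sirt2 probe did not pass against PBS at any dose. The GC content of the Sirt4 window was 53.2%, close to the median of all windows.

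Sirt4 was at 7.65, 7.32, 7.26, 7.68 and 7.76 in PBS. It was at 7.78, 8.07, 8.33 and 8.26 at 1 mM, at 7.97, 8.22, 8.14, 8.12 and 7.90 at 2 mM, and at 8.10, 8.17, 8.33 and 8.30 at 5 mM. Every octanoate array lay above every PBS array, while the 3 doses overlapped with each other. At 1, 2 and 5 mM, 15.8%, 25.9% and 45.4% of tested probes did not overlap with PBS, in either direction. The lowest of the 13 octanoate arrays was 1 mM replicate 1, at 7.78, which lay on the BeadChip of the PBS arrays and 0.02 above the highest of them.

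Against PBS, Sirt4 was higher by 0.58 ± 0.12 at 1 mM (1.49-fold, adjusted p = 0.00264), by 0.54 ± 0.11 at 2 mM (1.45-fold, adjusted p = 0.000968) and by 0.69 ± 0.12 at 5 mM (1.62-fold, adjusted p = 6.55e-05). At 1 mM, 288 of 10605 genes had a higher log2 fold change than Sirt4, and at 5 mM 1462 did. The 2 mM and 1 mM groups were not told apart (−0.04 ± 0.12, 95% confidence interval −0.30 to 0.22), nor were 5 mM and 2 mM (0.15 ± 0.12, −0.11 to 0.41). With BeadChip as a term the calls against PBS were lost, at 0.24 (adjusted p = 0.462), 0.14 (adjusted p = 0.757) and 0.35 (adjusted p = 0.376) for 1, 2 and 5 mM. The 1 mM call was also lost with median scaling (0.42, adjusted p = 0.0614). For Sirt4, octanoate and BeadChip cannot be told apart beyond that 1 array.

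The closest genes to Sirt4 over 18 arrays were Nit2, an omega-amidase (r = 0.892), Atox1, a copper chaperone (r = 0.888), and Stx8, a syntaxin of endosomes (r = 0.875). At 5 mM against PBS they were at 0.60, 0.47 and 0.77, and the within-group correlations were 0.66, 0.63 and 0.69. Of Sirt4's known target enzymes, Glud1, the glutamate dehydrogenase, and Mlycd, the malonyl-CoA decarboxylase, are described with the substrates below.

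**Figure D2:**
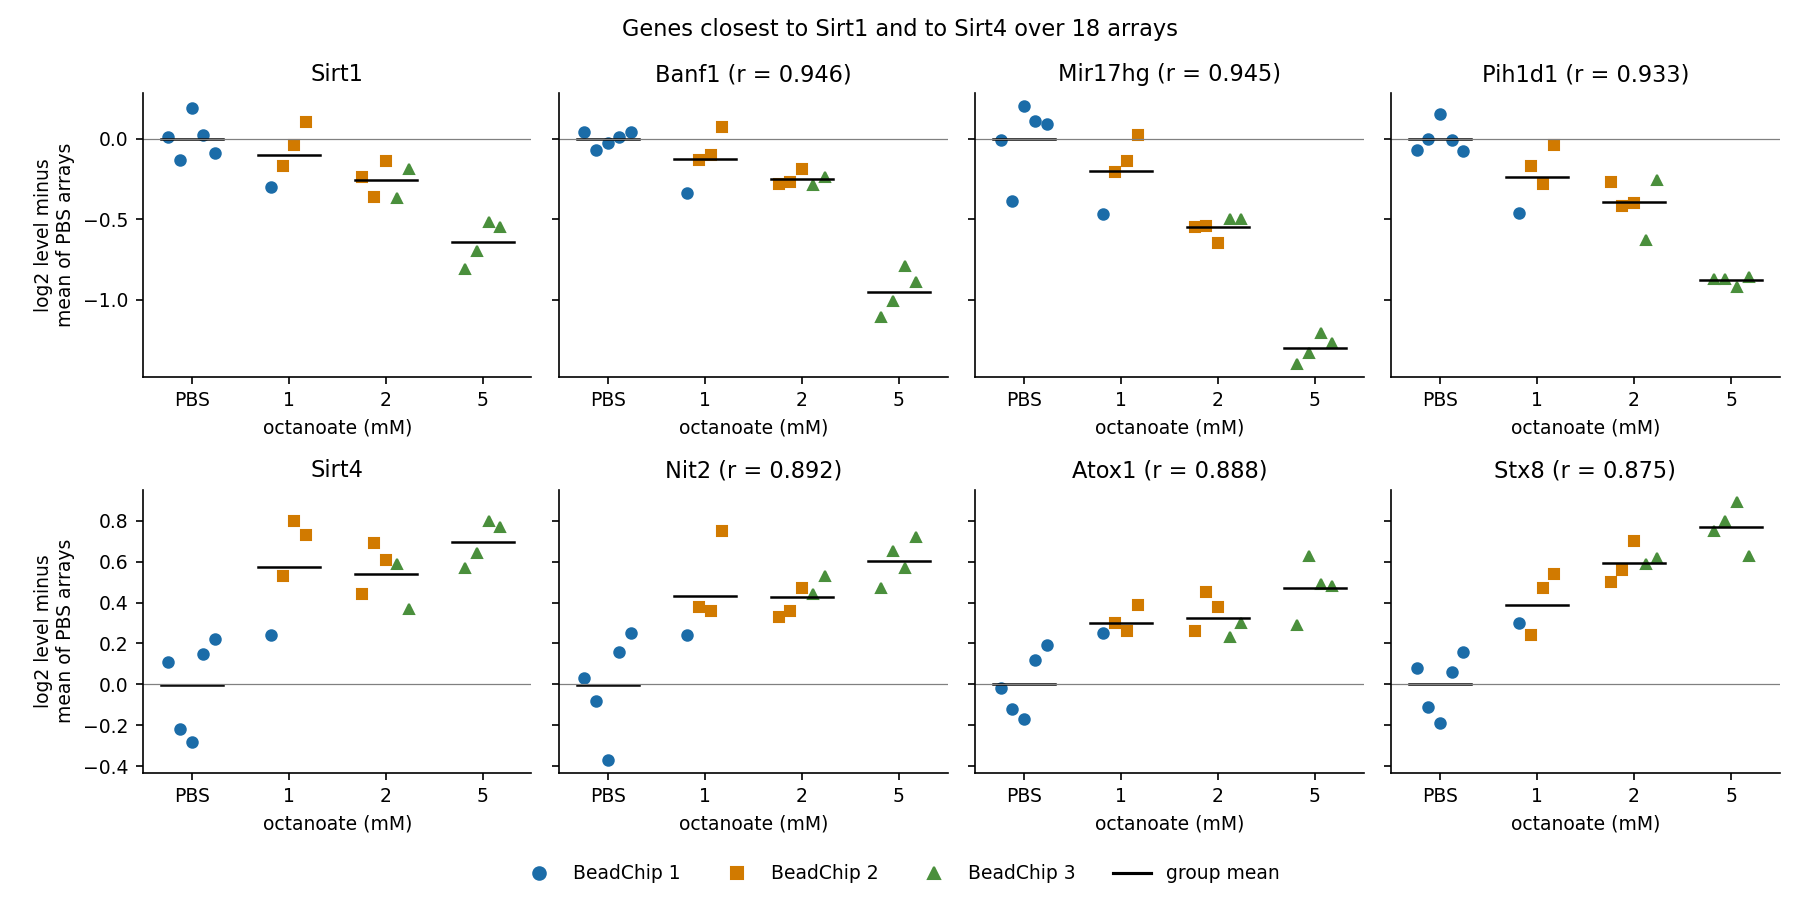
Log2 level minus the mean of the PBS arrays (vertical axes) by octanoate dose (mM) for Sirt1 and Sirt4 (left panels) and the 3 genes closest to each over 18 arrays, with Pearson's r in the panel titles. Points are arrays with the BeadChip as colour and shape, and lines are group means. The genes beside Sirt1 lie lowest at 5 mM, and 1 mM replicate 1 lies nearest to PBS for Sirt4.

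Sirt5 removes succinyl, malonyl and glutaryl groups, with enzymes of the urea cycle and of fat oxidation among its targets. It had 2 tested probes. Its promoter window, on chr13:43365285-43365534, plus strand (RefSeq, GRCm38.p6), is shown because it held AAGGTCA, a half-site of the kind bound by nuclear receptors such as estrogen-related receptors. That match, marked in capitals, was found in 4.08% of all windows with both strands searched.

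Sirt5 promoter: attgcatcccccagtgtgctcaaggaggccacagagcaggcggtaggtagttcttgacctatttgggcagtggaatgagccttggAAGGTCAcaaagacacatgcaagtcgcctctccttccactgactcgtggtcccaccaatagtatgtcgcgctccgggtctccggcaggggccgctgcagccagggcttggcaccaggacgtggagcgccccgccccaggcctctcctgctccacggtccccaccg

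No other sirtuin window held AAGGTCA. Here too a match of letters does not show that a factor binds. The gene for one such receptor, Esrra, is described with the regulators below, and its part in the level of Sirt5 was not tested.

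The brighter Sirt5 probe was at 6.20, 6.86, 6.82, 6.36 and 6.75 in PBS and at 6.94, 6.75, 6.93 and 6.73 at 1 mM. It was at 6.85, 6.88, 6.85, 6.63 and 6.73 at 2 mM, and at 6.76, 7.19, 7.03 and 7.04 at 5 mM. PBS had the widest spread of the groups (SD 0.30, against 0.11 to 0.18 in the octanoate groups), and 5 mM overlapped with it through 1 array at 6.76. At 5 mM the probe rose by 0.41 ± 0.12 (1.33-fold, adjusted p = 0.00898), while 1 mM (0.24, adjusted p = 0.193; BeadChip value 0.35) and 2 mM (0.19, adjusted p = 0.217; BeadChip value 0.40) did not pass.

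The dimmer Sirt5 probe was at 5.75, 6.03, 5.99, 5.87 and 5.92 in PBS and at 5.77, 6.45, 6.93 and 6.34 at 1 mM. It was at 6.21, 6.25, 6.43, 6.39 and 6.69 at 2 mM, and at 6.66, 6.48, 6.85 and 6.60 at 5 mM. All arrays at 2 and 5 mM lay above PBS (25.9% and 45.4% of tested probes did not overlap with PBS at these doses). But 1 mM replicate 1, the array on the BeadChip of PBS, lay within PBS at 5.77. The log2 fold change was 0.46 ± 0.16 at 1 mM (adjusted p = 0.0513), 0.48 ± 0.15 at 2 mM (adjusted p = 0.0152) and 0.73 ± 0.16 at 5 mM (1.66-fold, adjusted p = 0.000543). The 1 mM value lay at the threshold: it passed in 7 of 13 other settings (lowest adjusted p 0.00137) and without 1 mM replicate 1 or 2 mM replicate 5, and without each array in turn it ranged from 0.27 to 0.66.

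The probes parted when BeadChip was a term. The brighter was then at 0.73 at 5 mM (adjusted p = 0.0919) and the dimmer at −0.31 (adjusted p = 0.465), so neither passed and their signs differed. The dimmer was also below 0 in that fit at 1 mM (−0.14, adjusted p = 0.706) and 2 mM (−0.42, adjusted p = 0.285). Over 18 arrays they correlated at 0.51, and within groups at 0.06. The rise of Sirt5 at 5 mM thus had the same direction on both probes only without BeadChip as a term.

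Sirt3 is the main deacetylase of the mitochondrial matrix. It was at 8.84, 8.75, 8.65, 9.02 and 8.75 in PBS and at 8.64, 8.75, 8.73 and 9.22 at 1 mM. It was at 8.75, 9.09, 8.84, 8.91 and 8.96 at 2 mM, and at 8.81, 9.12, 9.21 and 9.07 at 5 mM. The groups overlapped throughout, with 3 of 4 arrays at 5 mM above the highest PBS array.

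At 5 mM Sirt3 differed from PBS by 0.25 ± 0.11 (1.19-fold, adjusted p = 0.0716; BeadChip value −0.05, adjusted p = 0.923). It lay close to the threshold: without PBS replicate 4, 1 mM replicate 4 or 5 mM replicate 1 it passed, the lowest adjusted p being 0.0264. It also passed with median scaling (0.38, adjusted p = 0.0328) and in several other settings. The slope of Sirt3 had an adjusted p of 0.0529, but it passed in 9 of 12 other settings (lowest adjusted p 0.0154) and without PBS replicate 4, 1 mM replicate 4 or 5 mM replicate 1. The genes closest to it were Ap5s1 (r = 0.805), Psmb1 (r = 0.803) and Arhgef4 (r = 0.754).

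Sirt2 deacetylates tubulin and other cytosolic proteins. It was at 8.36, 8.81, 8.58, 8.56 and 8.50 in PBS and at 8.82, 8.49, 8.34 and 8.33 at 1 mM. It was at 8.41, 8.51, 8.37, 8.49 and 8.43 at 2 mM, and at 8.70, 8.89, 8.72 and 8.64 at 5 mM. All 5 mM arrays lay above all 2 mM arrays but overlapped with PBS. In 25.7% of tested probes the 5 mM and 2 mM arrays did not overlap, in either direction. At 1 mM the array on the BeadChip of PBS stood highest, at 8.82.

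Sirt7, known for deacetylating histone H3 and for a role in ribosomal RNA transcription, was at 11, 11.15, 11.16, 11.16 and 11.06 in PBS and at 11.06, 10.94, 11.11 and 11.23 at 1 mM. It was at 10.90, 11.03, 11.01, 10.97 and 11.09 at 2 mM, and at 11.08, 11.28, 11.26 and 11.23 at 5 mM. Its groups overlapped, and their means differed least among the sirtuins, by at most 0.21. The probe that was not detected on any array had group means of 4.38 to 4.55 and gives no level.

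Between 5 and 2 mM 3 of 7 sirtuins passed, where 33.5% of genes did (28.6% of all tested probes). Sirt2 was higher at 5 mM by 0.30 ± 0.10 (1.23-fold, adjusted p = 0.0338), Sirt7 was higher by 0.21 ± 0.07 (1.16-fold, adjusted p = 0.038), and Sirt1 was lower, as described above. Once BeadChip was added, Sirt2 (0.28, adjusted p = 0.0938) and Sirt7 (0.19, adjusted p = 0.217) kept their size and did not pass (21.2% of all tested probes did). Both calls were lost without 2 mM replicate 1, 2 mM replicate 3, 5 mM replicate 2 or 5 mM replicate 3. The call of Sirt7 was also lost without 2 mM replicate 2, 2 mM replicate 4 or 5 mM replicate 4, and that of Sirt2 without 2 mM replicate 5 or 5 mM replicate 1. Against PBS at 5 mM Sirt2 differed by 0.18 ± 0.10 (adjusted p = 0.156; BeadChip value 0.58, adjusted p = 0.0533) and Sirt7 by 0.11 ± 0.07 (adjusted p = 0.241; BeadChip value 0.03), with 95% confidence intervals of −0.04 to 0.39 and −0.05 to 0.27. Between 2 and 1 mM 0 of 7 sirtuins passed in limma, and 0 had an unadjusted p under 0.05 (5.95% of genes and 4.79% of all tested probes passed).

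Sirt2 was followed most closely by Cope, a coatomer subunit (r = 0.831), Arrdc4 (r = 0.810) and Eif3k (r = 0.805), and Sirt7 by Rtf2 (r = 0.873), Tfap2a (r = 0.787) and Hps5 (r = 0.764). Sirt5's brighter probe was followed by Rab5c (r = 0.822), Prrc2b (r = 0.810) and Igf1 (r = 0.809).

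Sirt6, a deacetylase of histone H3 tied to DNA repair and glucose metabolism, had 3 dim probes, and none passed at any dose. Its brightest averaged 5.56 ± 0.35 with PBS, 5.90 ± 0.19 with 1 mM, 5.82 ± 0.17 with 2 mM and 5.66 ± 0.22 with 5 mM (SD, n = 5, 4, 5 and 4), with the PBS arrays between 5.04 and 5.86. The other 2 averaged 5.25 to 5.63 over the groups. At 5 mM against PBS the 3 probes were at 0.10 (95% confidence interval −0.23 to 0.42), −0.08 (−0.38 to 0.21) and 0.14 (−0.10 to 0.38). Their BeadChip values in the same order were −0.39, 0.24 and −0.36 (adjusted p = 0.483, 0.665 and 0.307). Each had the other sign and lay outside the interval of its probe. Over 18 arrays these probes correlated with each other at −0.23, −0.06 and 0.14, so small changes of Sirt6 were not measurable here. Gatd1 (r = 0.773), Tnfrsf1a (r = 0.753) and Zfp281 (r = 0.712) were closest to the brightest probe.

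**Figure D3:**
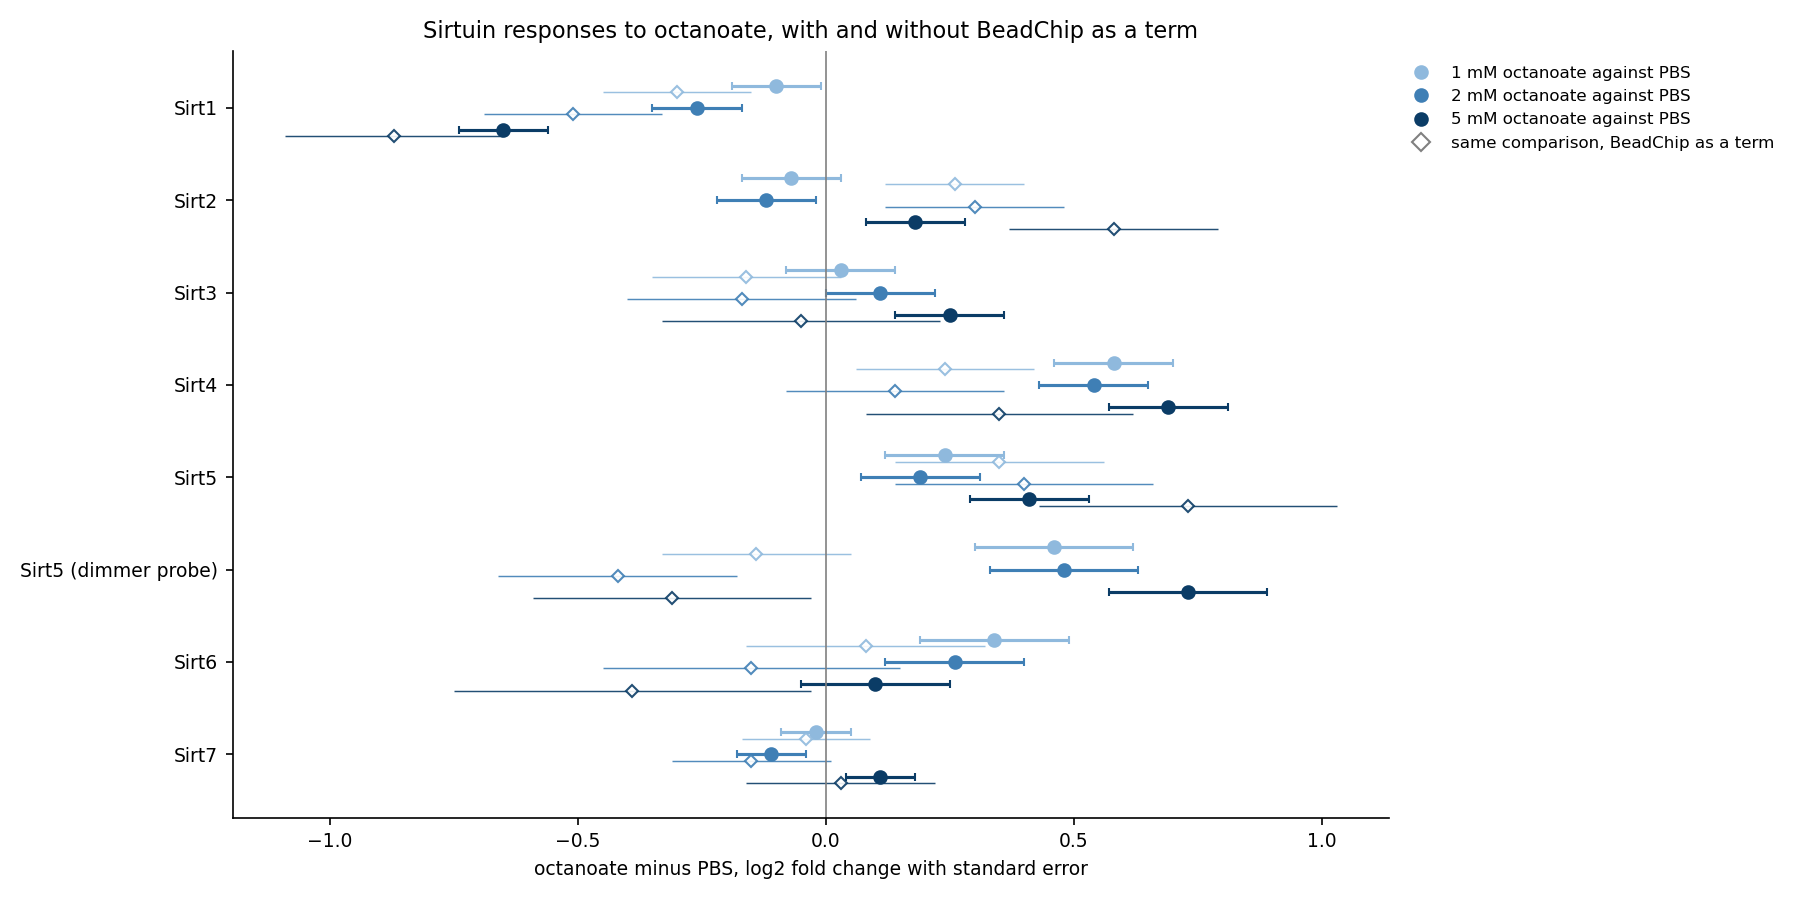
Log2 fold change of octanoate over PBS (horizontal axis) for each sirtuin's brightest probe and the dimmer Sirt5 probe at 1, 2 and 5 mM. Filled circles are the group comparison over 18 arrays, open diamonds the same comparison with BeadChip as a term, and lines are standard errors. Sirt1 lies left of 0 in both fits, and the dimmer Sirt5 probe changes side between them.

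Whether one sirtuin responded differently from another was tested as the difference of their log2 levels on each array, 5 mM against PBS, for all 21 pairs. The exact permutation test was two-sided over all splits of 4 against 5 arrays, and p was adjusted over the 21 pairs. In total 8 pairs passed, each with an adjusted p of 0.0417. Sirt1 differed from every other member, by −1.34 ± 0.13 from Sirt4, −1.05 ± 0.17 from Sirt5, −0.90 ± 0.10 from Sirt3, −0.82 ± 0.14 from Sirt2, −0.75 ± 0.08 from Sirt7 and −0.74 ± 0.23 from Sirt6.

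Sirt4 also rose more than Sirt7, by 0.58 ± 0.13, and Sirt3 differed from Sirt4 by −0.44 ± 0.10. The remaining 13 pairs did not pass, among them Sirt4 and Sirt5 (0.28 ± 0.23, adjusted p = 0.438). A difference within an array is little affected by how arrays were scaled, but the 5 mM and PBS arrays share no BeadChip, and slide and dose cannot be told apart in this test. With BeadChip as a term the difference between Sirt1 and Sirt4 was −1.22, and all 6 differences from Sirt1 stayed negative, between −1.60 and −0.49. Sirt4 then differed from Sirt7 by 0.32 and Sirt3 from Sirt4 by −0.40.

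**Figure D4:**
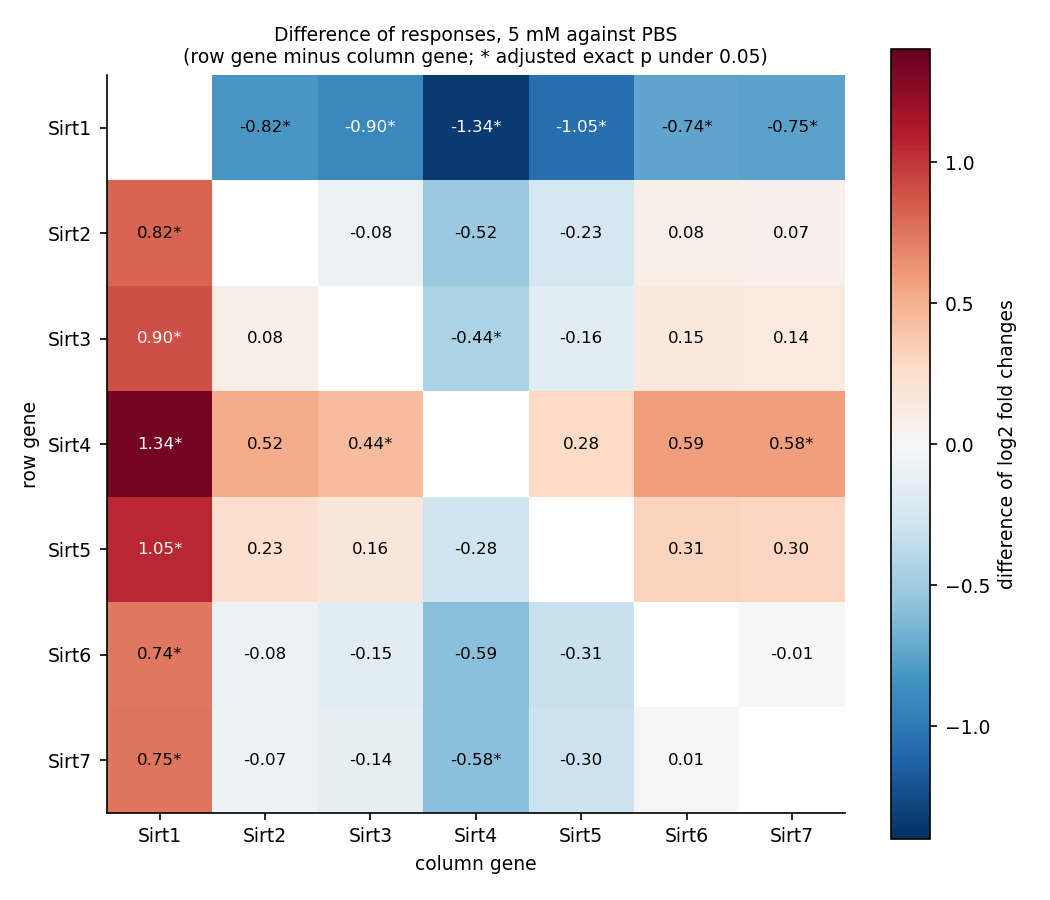
Difference between sirtuins in their log2 fold change at 5 mM against PBS, as the row gene minus the column gene, with blue below 0 and red above. Stars mark the 8 pairs with an adjusted exact p under 0.05. The Sirt1 row is negative against all 6 other members, down to −1.34 against Sirt4.

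The neighbours of the sirtuin genes moved in both directions. At 5 mM against PBS, Sirt1's neighbours were at 0.00 (Herc4, adjusted p = 0.994) and 0.99 (Dnajc12, adjusted p = 1.05e-08). Sirt4's tested neighbour Pxn was at 0.39 (adjusted p = 0.041), and Sirt5's were at 0.04 (Gfod1, adjusted p = 0.81) and −0.70 (Nol7, adjusted p = 0.000179). The arrays' strand and probe positions are not used here, and Ric8a, which overlaps Sirt3, was not tested.

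The gene lists below are read against all genes, of which 58.7% passed at 5 mM against PBS (53.5% of all tested probes, and 24.2% of them with BeadChip as a term). Among genes for the supply of NAD, the sirtuins' cosubstrate, 3 passed at every dose. Of the NAD synthesis list of 22 genes 12 were tested. At 5 mM 4 were higher and 2 lower than in PBS (27.2% of all tested probes were higher and 26.3% lower), with a median log2 fold change of 0.21. Of the 12 genes 25%, 50% and 50% passed at 1, 2 and 5 mM, beside 19.6%, 40.8% and 58.7% of all genes. Nampt, the rate-limiting enzyme that recycles the nicotinamide which sirtuins release, fell. Naprt and Nmrk1, which make NAD from nicotinic acid and from nicotinamide riboside, rose.

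Nampt was at 7.05 to 7.52 at 5 mM and at 8.16 to 8.25 in PBS, with no overlap, as in 45.4% of tested probes. Its log2 fold changes were −0.64 ± 0.14 at 1 mM, −0.63 ± 0.13 at 2 mM and −0.98 ± 0.14 at 5 mM (0.506-fold, adjusted p = 6.94e-06), and a second probe was at −1.08 ± 0.13. The BeadChip values of −1.12, −1.13 and −1.25 all passed, but they reach PBS only through 1 mM replicate 1. That array was at −1.12 from the PBS mean, and the other 1 mM arrays were at −0.61, −0.46 and −0.36. The slope of Nampt was −0.17 per mM (adjusted p = 0.00016, limma). With BeadChip as a term it did not pass (−0.10, adjusted p = 0.332). Like Sirt1, Nampt was thus lower at 5 mM, but Nampt had passed at 1 mM already (adjusted p = 0.00429).

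Naprt was at 10.25 to 10.40 at 5 mM and at 9.11 to 9.35 in PBS. It was higher by 0.69 ± 0.08 at 1 mM, 0.86 ± 0.07 at 2 mM and 1.15 ± 0.08 at 5 mM (2.23-fold, adjusted p = 1.14e-10; BeadChip value 0.84, adjusted p = 0.00186). Nmrk1 was higher by 0.58 ± 0.10, 0.78 ± 0.09 and 0.97 ± 0.10 at the same doses (1.96-fold at 5 mM, adjusted p = 3.8e-08; BeadChip value 1.13, adjusted p = 0.00171). Nudt12, which degrades NADH, rose by 1.06 ± 0.09 at 5 mM (BeadChip value 1.03, adjusted p = 0.00131). With BeadChip as a term 3 of the 12 genes were higher at 5 mM and 1 was lower. Nudt12 is counted among the higher genes of the list with and without that term.

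The enzymes that compete with sirtuins for NAD, or clear nicotinamide, had 17 of 21 genes tested. At 5 mM 5 were higher and 3 lower (47.1% of the list passed, below the 58.7% of all genes), with a median of 0.08, and with BeadChip as a term 2 were higher and 0 lower. Parp1 and Parp2, the DNA damage sensors, fell by 0.56 ± 0.09 and by 0.70 ± 0.08, but their BeadChip values of −0.46 (adjusted p = 0.0999) and −0.51 (adjusted p = 0.0687) did not pass. The other Parp2 probes were at −0.80 (adjusted p = 8.59e-06) and −0.17 (adjusted p = 0.329), so 2 of its 3 probes passed. Parp3 rose by 0.67 ± 0.11 (BeadChip value 0.96, adjusted p = 0.0166) and Parp6 by 0.50 ± 0.11 (BeadChip value 0.34, adjusted p = 0.422). At 1 mM 0 of the 17 passed.

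**Figure D5:**
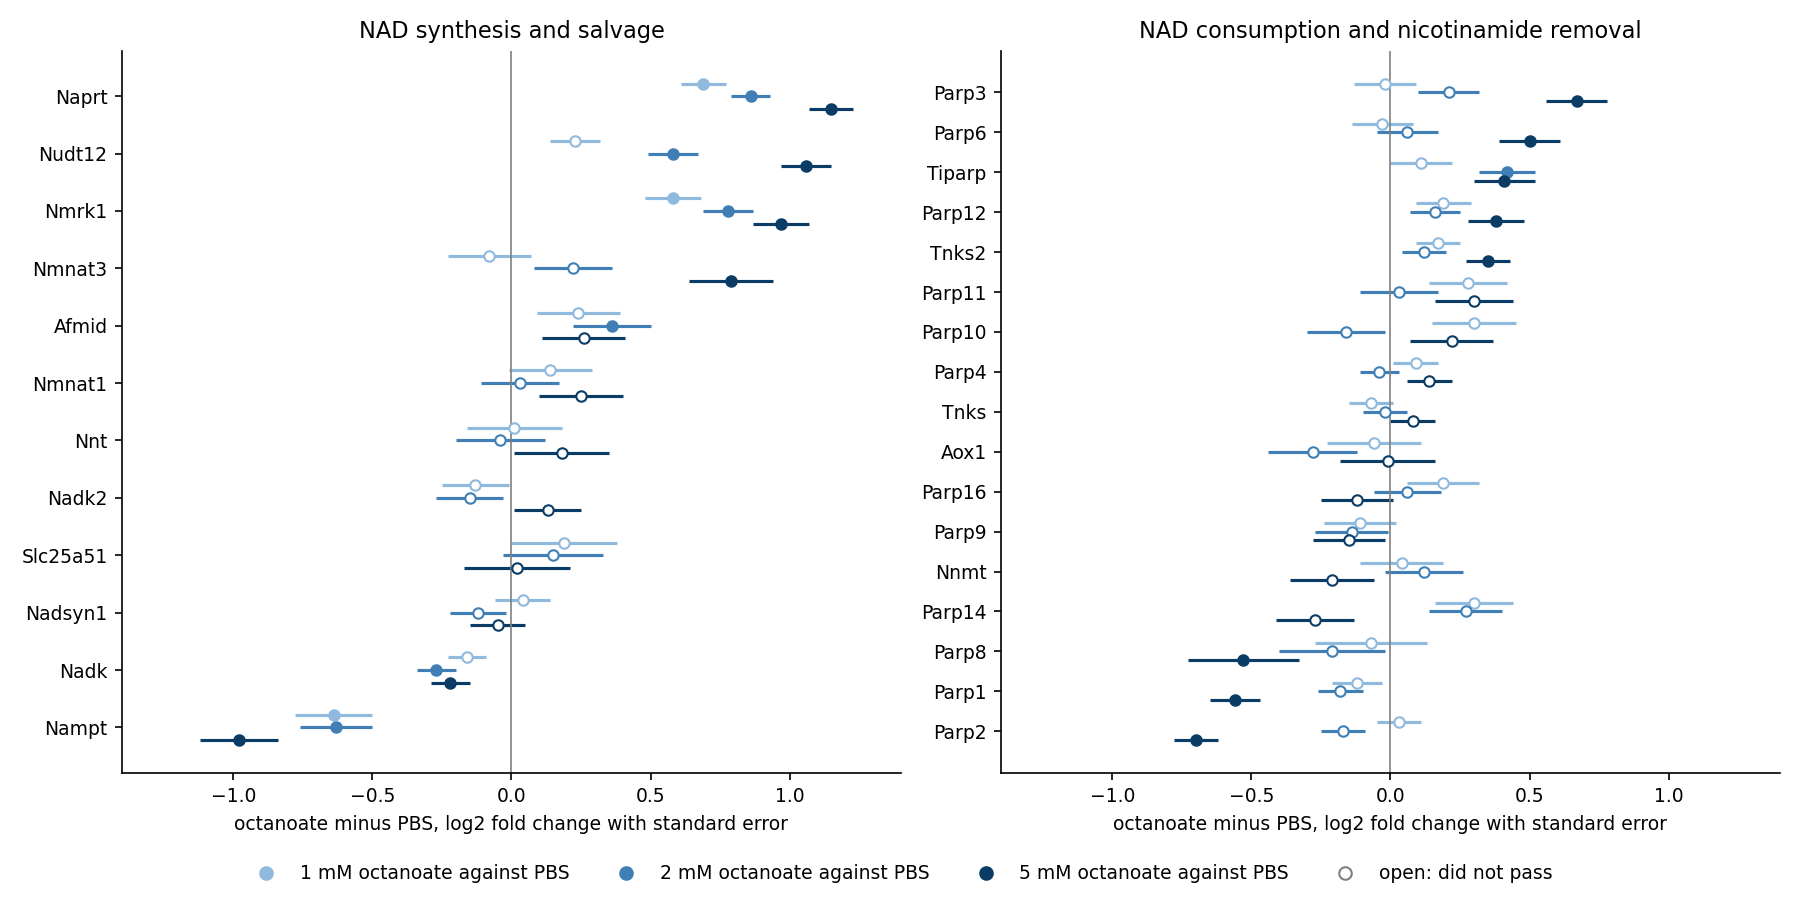
Log2 fold change of octanoate over PBS with its standard error (horizontal axes) for the tested genes of NAD synthesis and salvage (left) and of NAD consumption and nicotinamide removal (right) at 1, 2 and 5 mM. Filled points passed an adjusted p of 0.05 and open points did not. Naprt, Nmrk1 and Nampt passed at every dose, with Nampt at −0.98 at 5 mM.

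Known regulators of sirtuins had 12 of 14 genes tested, and at 5 mM 8 were lower and 3 higher (11 of 12 passed, where 58.7% of all genes did), with a median of −0.36. With BeadChip as a term 4 were lower and 1 higher. Rps19bp1, known as an activator of Sirt1, fell by 0.77 ± 0.11 (BeadChip value −0.50, adjusted p = 0.175), and E2f1, a cell cycle factor that can drive Sirt1 transcription, fell by 0.59 ± 0.10 (BeadChip value −0.85, adjusted p = 0.00669). The BeadChip value of E2f1 reaches PBS only through 1 mM replicate 1. That array stood apart for E2f1 at 8.74, with the other 1 mM arrays at 9.12 to 9.19. Esrra, the estrogen-related receptor alpha, rose by 0.85 ± 0.08 (BeadChip value 0.86, adjusted p = 0.00321). Prkaa2, a catalytic subunit of AMP-activated kinase, was at 1.18 ± 0.17 on its brighter probe and at 0.13 ± 0.15 (adjusted p = 0.481) on the other, so its change is uncertain.

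Nuclear and cytosolic substrates of sirtuins had 21 of 24 genes tested, of which 7 were higher and 9 lower at 5 mM (76.2% passed, beside 58.7% of all genes; median −0.16; 5 higher and 4 lower with BeadChip as a term). Acss2, the cytosolic acetyl-CoA synthetase that Sirt1 activates, rose by 1.65 ± 0.13 (3.15-fold, adjusted p = 2.1e-09; BeadChip value 2.06). Per2, a clock protein, rose by 1.69 ± 0.08 (3.23-fold; BeadChip value 1.78), and Nr1h4, the bile acid receptor, rose by 0.93 ± 0.09 (1.90-fold; BeadChip value 0.57, adjusted p = 0.0325). Cdc20, a driver of anaphase and a Sirt2 target, fell to 7.43 to 7.67 at 5 mM, against 11.04 to 11.17 in PBS.

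Mitochondrial and peroxisomal substrates had 13 of 20 genes tested, of which 6 were higher and 1 lower at 5 mM (53.8% passed, close to the 58.7% of all genes; median 0.16; 3 higher and 0 lower with BeadChip as a term). Glud1 and Mlycd, both known targets of Sirt4, rose by 1.14 ± 0.08 (2.20-fold; BeadChip value 1.33) and 1.34 ± 0.09 (2.53-fold; BeadChip value 1.15). Both had passed at 1 mM, at 0.29 and 0.51. At 1 mM 3 of the 13 genes were higher (19.6% of all genes passed). With BeadChip as a term 1 was (6.31% of all tested probes passed), so at most 1 of Glud1 and Mlycd kept its call. Aldh2, a mitochondrial aldehyde dehydrogenase, rose by 0.95 ± 0.10 at 5 mM (BeadChip value 0.92, adjusted p = 0.00482). Ppif, cyclophilin D of the permeability pore, fell by 0.54 ± 0.08 (BeadChip value −0.38, adjusted p = 0.206).

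The other family of lysine deacetylases, which use zinc and not NAD, had 9 genes tested of 11 listed. At 5 mM 5 were higher and 1 lower (66.7% passed, beside 58.7% of all genes; 2 higher and 0 lower with BeadChip as a term), with a median of 0.27, against 2 higher and 1 lower among 7 sirtuins with a median of 0.18, and the difference between the families was not tested. Hdac11, an efficient remover of long acyl chains, rose by 1.39 ± 0.14 (2.62-fold; BeadChip value 1.61, adjusted p = 0.00188), and Hdac8 by 0.99 ± 0.11 (1.98-fold; BeadChip value 0.88, adjusted p = 0.022). Hdac6, the tubulin deacetylase that shares a substrate with Sirt2, rose by 0.41 ± 0.09 (BeadChip value 0.41, adjusted p = 0.167). Hdac10, a polyamine deacetylase, fell by 0.74 ± 0.12 (BeadChip value −0.77, adjusted p = 0.0854).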

How the data were processed

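Total RNA of AML12 cells was labelled with biotin and hybridised to Illumina mouse BeadChips, 1 array per sample. The deposited signals are probe intensities with a detection p-value per probe, not normalized, per the file headers. The authors' deposited processed values are on a log2 scale, made with lumi per the submitters' processing notes, and served as an alternative. The probes' genome build was not stated in the sources. Intensities were background-corrected on negative controls inferred from the detection p-values, quantile-normalized and taken to log2 with an offset of 16 (neqc, limma 3.58.1, R 4.3.3). The offset reduces the fold changes of dim probes. Probes with a detection p under 0.05 on at least 4 arrays were tested with lmFit and eBayes over all 18 arrays, which share one estimate of the spread.

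Groups came from the labels. Of 45281 probes, 34885 had 1 gene symbol, 18 had several and 10378 were not named. The named genes were all sirtuins, up to 4 genes per list, by lowest adjusted p at 5 mM, the 3 genes most correlated with each sirtuin and the neighbouring genes. The members and lists were chosen with earlier results of these data known. BeadChips were read from the array names. The number of arrays limits the precision. Promoters are from RefSeq, GRCm38.p6, and all 7 sirtuins matched. Alternatives were other scalings, filters and offsets, BeadChip as a term, a replicate block and leaving out arrays. The fit was tested on simulated data.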

Additional observations from a re-analysis of the deposited data

Results flagged for a closer look

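Of 264 groups of 4 or 5 arrays that were examined, 9 had 1 array far from the others by Dixon's test, and none belonged to a sirtuin probe. Chance flags about 1 in 20 groups. E2f1 was at 8.74 in 1 mM replicate 1, where the other arrays of the group lay between 9.12 and 9.19, and at 8.67 in 5 mM replicate 2, with the others at 8.94 to 8.98. Prkaa2 was at 4.91 in 1 mM replicate 4, and its other 1 mM arrays were at 5.61 to 5.73. Aldh2 was at 12.63 in 2 mM replicate 5, against 12.97 to 13.08 on the rest. Hdac8 stood high in PBS replicate 1, at 6.09, with the others at 5.71 to 5.79. Ttr stood high in 1 mM replicate 4, at 10.15, beside 9.97 to 9.99. Sox9 was at 11.70 in PBS replicate 2, beside 11.82 to 11.84. Zfp281 was at 9.65 in 5 mM replicate 1, beside 9.50 to 9.52. Hps5 was at 7.48 in 2 mM replicate 4, beside 7.82 to 7.92.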

How the results depend on the processing

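The fall of Sirt1 at 5 mM against PBS passed in every setting run, between −0.88 and −0.30, and without each array in turn. The number of sirtuins called at 1 mM was 0 with median scaling, 0 with BeadChip as a term and 2 with the mean of a gene's probes. At 2 mM it was 1 with median scaling, 0 with BeadChip as a term, 3 with the mean of a gene's probes and 1 to 2 without each array in turn. At 5 mM, for 5 against 2 mM and for the slope it was 1 with BeadChip as a term, and for 5 against 2 mM it was 1 to 3 without each array in turn. The dimmer Sirt5 probe turned with BeadChip as a term, to −0.14 at 1 mM, −0.418 at 2 mM, −0.311 at 5 mM and −0.007 for the slope per mM. In most other settings 4 sirtuins were called for the slope, Sirt3 among them. The causes were not tested. Median scaling moved the median of all probes to −0.11, −0.05 and 0.09 at 1, 2 and 5 mM, and the split at 5 mM to 6191 higher and 3270 lower probes, beside 5586 and 5400. At 1 mM the split was 498 higher and 2032 lower, beside 1922 and 1697. With the replicate number as a block 3 sirtuins were called at 5 mM, 1 at 1 mM and 2 for 5 against 2 mM, where Sirt2 was lost. No pairing of arrays by number was seen, since 25 same-number pairs had correlations of −0.041 to 0.054 and 3 of 18 arrays correlated best with their own number. Whether same-number arrays were prepared together is not stated in the labels, and these correlations cannot show it. Sirt6 and the dimmer Sirt5 probe lay near background, which limits what could be detected.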
